A study of Mus musculus with 12 samples.

Results

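Long noncoding RNAs (lncRNAs) that are known from mouse brain were followed gene by gene through cerebral ischemia. The list held 9 genes, chosen by name, and 7 of them were found among the 31208 genes of the count table: Meg3, Rian, Mirg, Miat, Snhg11, Snhg1 and Gas5. Snhg11 had a row under its own symbol. The other 6 were found through rows filed as known lncRNA genes, of which the table has 353, because each of these rows names that Ensembl gene beside an entry of the NONCODE lncRNA collection. Malat1 and Neat1 were not analysed here. Brains came from C57BL/6 mice aged 8 weeks, 4 in each of 3 groups. The sham mice had no ischemia according to their labels. Both ischemic groups had middle cerebral artery occlusion (MCAO), in which a filament closes the artery on the left side, and were taken 6 h after ischemia. They differed in the agent given into the cerebral ventricle on the day before, vehicle or lactate. The labels say lactate, and in the methods it is D-lactate. Lactate was given only to ischemic mice, so no group shows lactate without ischemia. Whether the sham mice were injected is not given in the sources used here. If they were not, ischemia and the injection cannot be told apart in comparisons with sham. In whole tissue, fewer cells of a type and less RNA per cell cannot be told apart.

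These RNAs belong to different families. Meg3, Rian and Mirg lie in a row in the imprinted Dlk1-Dio3 region and are made from the maternal chromosome, and their introns and exons carry small nucleolar RNAs (snoRNAs) and microRNAs. Gas5, Snhg1 and Snhg11 are snoRNA host genes, in which snoRNAs that guide the chemical modification of ribosomal and other RNAs are cut from introns, while the spliced transcript is left as a by-product or has roles of its own. Spliced Gas5 and Snhg1 are known to be short-lived, because they are degraded when ribosomes read them. Miat, also called Gomafu, is a nuclear RNA of neurons that binds splicing factors.

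On GRCm38 (GENCODE release M21), Meg3 lies on the plus strand at chr12:109541001-109571726, Rian on the plus strand at chr12:109603940-109661716, and Mirg on the plus strand at chr12:109729764-109749460. Inside Rian are 13 snoRNA genes and 4 microRNA genes, inside Mirg 14 microRNA genes, and inside Meg3 2 microRNA genes. RefSeq (GRCm38.p6) lists 3 mature microRNAs inside Meg3, 6 inside Rian and 26 inside Mirg. Their levels are not part of these data, since only the long transcripts were counted. One or more is shown for each host, to make plain what these transcripts carry, with the seed (bases 2 to 8) in capitals.

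mmu-miR-770-5p, inside Meg3: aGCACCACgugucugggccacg
mmu-miR-370-3p, inside Rian: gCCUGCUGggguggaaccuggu
mmu-miR-134-5p, inside Mirg: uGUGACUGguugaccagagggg
mmu-miR-453, inside Mirg: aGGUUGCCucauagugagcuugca
mmu-miR-496a-5p, inside Mirg: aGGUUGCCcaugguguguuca

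Among the mature microRNAs of the 3 hosts, only mmu-miR-453 and mmu-miR-496a-5p had the same seed, GGUUGCC.

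**Figure D1:**
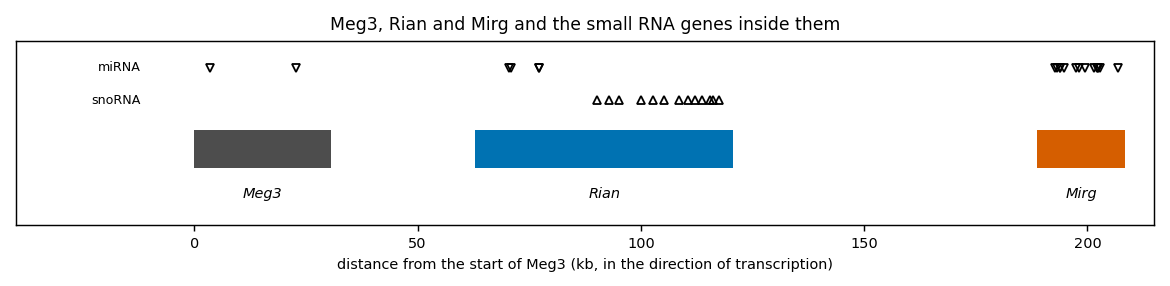
Positions of Meg3, Rian and Mirg (bars) and of the snoRNA and microRNA genes annotated inside them on the same strand (triangles), as distance in kb from the start of Meg3. The 13 snoRNA genes lie in Rian, and the 14 microRNA genes of Mirg lie close together near the far end of the region.

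The snoRNA hosts are on other chromosomes. Snhg1 lies at chr19:8723475-8726443 on the plus strand with 8 snoRNA genes inside, Gas5 at chr1:161034422-161038539 on the plus strand with 10, and Snhg11 at chr2:158375638-158386145 on the plus strand with 2. GENCODE files Snhg11 as protein coding, although it is usually counted among the noncoding hosts. Miat lies at chr5:112213228-112229395 on the minus strand. Zbtb37 overlaps Gas5 on the other strand, Gm26906 overlaps Meg3 and Gm26953 overlaps Miat. Whether strand was used in counting is not given in the sources used here, so reads from these overlapping pairs may not be told apart.

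The promoter of Snhg1 is shown because this gene differed most clearly between the groups, those of Gas5 and Meg3 because they hold the same motif. Each window runs from 250 bases before the start to 50 bases after it in RefSeq (GRCm38.p6), and motif letters are in capitals. Snhg1 has 1 start site there, and the windows of Gas5 and Meg3 belong to the second and the first of 2 start sites.

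Snhg1, plus strand, chr19:8723237-8723536: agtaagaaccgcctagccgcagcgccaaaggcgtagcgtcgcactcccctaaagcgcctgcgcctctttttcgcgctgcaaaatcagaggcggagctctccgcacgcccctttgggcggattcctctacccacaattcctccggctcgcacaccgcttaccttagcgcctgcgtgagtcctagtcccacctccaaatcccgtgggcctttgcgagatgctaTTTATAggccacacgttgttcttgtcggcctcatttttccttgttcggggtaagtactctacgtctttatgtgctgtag
Gas5, plus strand, chr1:161034916-161035215: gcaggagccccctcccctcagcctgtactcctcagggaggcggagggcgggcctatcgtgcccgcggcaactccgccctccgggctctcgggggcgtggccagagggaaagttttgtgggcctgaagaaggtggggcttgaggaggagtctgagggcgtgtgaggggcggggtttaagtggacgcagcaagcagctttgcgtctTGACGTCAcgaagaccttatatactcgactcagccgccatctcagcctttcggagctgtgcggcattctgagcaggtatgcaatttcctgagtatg
Meg3, plus strand, chr12:109540746-109541045: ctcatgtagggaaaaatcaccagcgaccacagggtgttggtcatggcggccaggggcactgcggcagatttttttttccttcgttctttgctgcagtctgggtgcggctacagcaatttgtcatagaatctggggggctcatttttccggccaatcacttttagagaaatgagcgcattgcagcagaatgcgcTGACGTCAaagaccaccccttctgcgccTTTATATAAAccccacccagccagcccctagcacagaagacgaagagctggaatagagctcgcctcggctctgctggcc

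The motifs were chosen after the sequences had been read. The cAMP response element TGACGTCA, which reads the same on both strands, stood 46 bases before the start of Gas5 and 57 bases before that of Meg3. It was found in 1.79% of the 32851 RefSeq promoter windows of this length. The TATA box motif was searched as TATAAA on both strands. In Snhg1 and Meg3 a match stood 29 bases before the start and read TTTATA, which is TATAAA on the other strand. Meg3 had 2 overlapping matches, and the later one read TATAAA on the strand of the gene. Such a match on either strand was found in 13.6% of windows. The AP-1 motif TGANTCA was in none of the 9 windows of the 7 genes, against 7.81% of all windows. A match is a run of letters and not a measured binding site.

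Depth ranged from 6815920 to 10677224 counts per mouse, so that 3 counts, taken as the floor of detection, corresponded to 0.281 to 0.440 CPM. This unit is the count of a gene divided by the total of its mouse and scaled to a common depth. It is not corrected for transcript length, so levels are compared between groups and not between genes. Summed over the 7 lncRNAs, the level was 3897 to 5193 CPM in sham mice, 3907 to 4605 CPM in vehicle-treated and 3372 to 4144 CPM in lactate-treated ischemic mice, and the ranges overlapped. Gas5, Meg3, Rian and Snhg11 had at least 2073 counts in every mouse. Snhg1 had 347 to 1022 counts. Mirg had only 50 to 127 and Miat only 14 to 28 counts per mouse, so neither was abundant in these libraries. Markers of brain cells were expressed in each mouse, and the summed level of 10 neuron markers was 5584 to 5920 CPM in sham mice, 4917 to 6855 CPM in vehicle-treated and 5002 to 5578 CPM in lactate-treated mice. One vehicle-treated mouse, mouse 2, stood apart in choroid plexus markers, at 1841 CPM summed over 6 genes, while the other vehicle-treated mice had 5.87 to 15.4 CPM. Sham mice had 2.17 to 6.07 CPM and lactate-treated mice 10.7 to 20.1 CPM, without overlap. The gap came mainly from Ttr, with means of 1.48 CPM in sham and 13.9 CPM with lactate. The other genes of this sum were low, with means of 0.124 to 0.742 CPM in sham and 0.351 to 0.845 CPM with lactate.

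**Figure D2:**
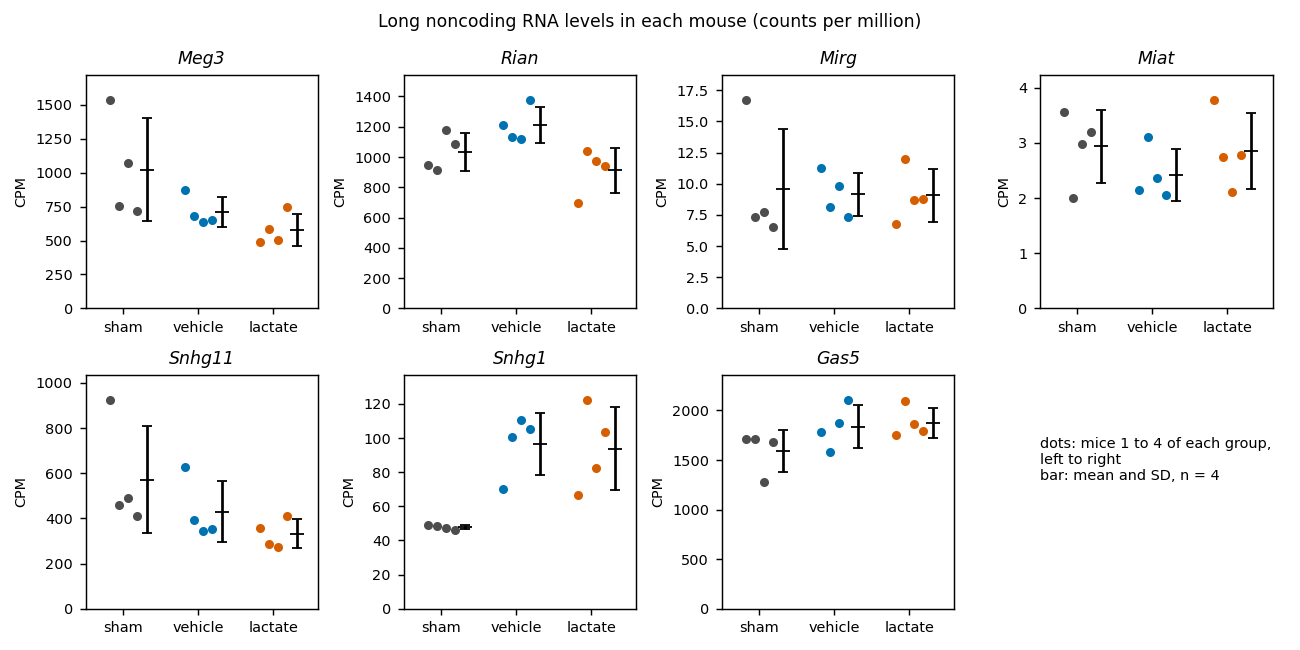
CPM of each lncRNA (vertical axes, from 0) in the mice of the sham, vehicle-treated ischemic and lactate-treated ischemic groups, with mean and SD of 4 mice beside the dots. Snhg1 is tightly grouped in sham mice, between 46.4 and 48.8 CPM, and every ischemic mouse lies above them.

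Each pair of groups was then compared over all genes with edgeR's quasi-likelihood test, with Benjamini-Hochberg adjustment, and a gene was called at an adjusted P value under 0.05. The comparisons of vehicle and of lactate with sham share their sham mice. In vehicle-treated ischemic brain, 1 of the 7 lncRNAs was called higher than in sham, Snhg1, and 0 were called lower by edgeR. The background in this comparison was 1.29% of 17019 genes called higher and 0.182% called lower. At an unadjusted P value under 0.05, Rian was also higher there and Meg3 lower, where 8.58% of genes were higher and 5.21% lower. In lactate-treated ischemic brain, Snhg1 was again called higher, and Meg3 and Snhg11 were called lower, with a background of 8.76% higher and 3.55% lower among 17262 genes. At an unadjusted P value under 0.05, Gas5 was also higher there, where 15.6% of genes were higher and 11.4% lower. Between lactate and vehicle, 0 of the 7 were called by edgeR in either direction, and 0 by DESeq2. The background there was 0% higher and 0.00574% lower of 17419 genes. At an unadjusted P value under 0.05, 1 lncRNA, Rian, was lower with lactate than with vehicle, where 4.91% of genes were higher and 3.93% lower. Groups that did not overlap were a looser criterion. By it 1 lncRNA was higher and 0 were lower with vehicle than in sham, where 4.14% of genes were higher and 4.89% lower. With lactate 2 were higher and 1 was lower than in sham, where 10.4% of genes were higher and 8.74% lower. Between lactate and vehicle 0 were higher and 1 was lower, where 2.99% of genes were higher and 1.83% lower. The median log2 fold change of the 7 lncRNAs was -0.02, -0.04 and -0.06 in the 3 comparisons, against 0.00, -0.03 and -0.03 over all genes tested.

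**Figure D3:**
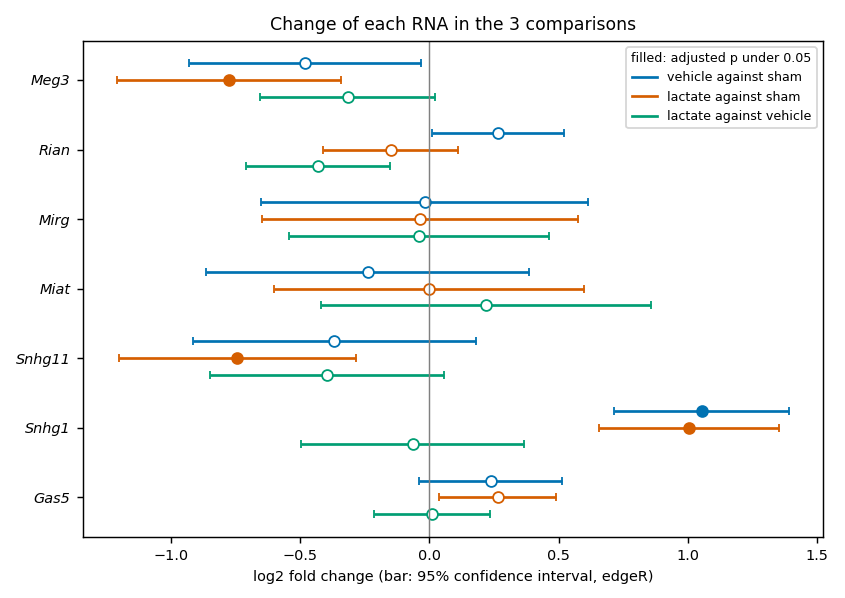
Log2 fold change of each lncRNA in the 3 comparisons (edgeR), with bars for the 95% confidence interval and filled dots for an adjusted P value under 0.05. Snhg1 lies near 1 against sham in both ischemic groups, Meg3 and Snhg11 are filled below 0 only for lactate against sham, and no dot is filled for lactate against vehicle.

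Snhg1 was about 2 times as high in ischemic brain as in sham brain, with or without lactate. Its level was 48.8, 48.6, 47.1 and 46.4 CPM in sham mice 1 to 4. In vehicle-treated mice it was 70.2, 101, 111 and 105 CPM. In lactate-treated mice it was 66.5, 122, 82.4 and 104 CPM. Sham mice spread over little more than 2 CPM, and all 8 ischemic mice lay above them, with mouse 1 lowest in both ischemic groups. The level rose from 47.7 ± 1.17 (SD, n = 4) to 96.8 ± 18.2 CPM with vehicle, a log2 fold change of 1.05 (SE 0.16, edgeR adjusted P = 0.00373) and 2.08-fold with an interval of 1.64 to 2.63. With lactate it rose to 93.7 ± 24.4 CPM, a log2 fold change of 1.00 (SE 0.16, edgeR adjusted P = 0.00184) and 2.01-fold with an interval of 1.58 to 2.55. Lactate and vehicle differed by -0.06 on the log2 scale, with a 95% interval of -0.50 to 0.37 (edgeR adjusted P = 0.947). This interval leaves room for a level 1.29-fold higher as well as for one at 0.709 of the vehicle level. The call against sham held under each of the 16 alternatives for vehicle and 15 for lactate, including each mouse left out in turn, with adjusted P values of at most 0.0248 and 0.0100.

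Markers of several cell types differed from sham in the same samples as Snhg1, some higher and some lower. Of the neutrophil markers, 2 of 4 tested were called higher with vehicle and 3 of 5 with lactate. S100a8 and S100a9, calcium-binding proteins of neutrophils, rose in both ischemic groups, and Retnlg rose with lactate. Csf3r, a cytokine receptor gene, had log2 fold changes of -0.97 and -0.06 with vehicle and lactate, and Cxcr2, a chemokine receptor gene, 0.38 and -0.28, and neither passed the test. Ly6g, the defining surface marker of mouse neutrophils, had 0 to 2 counts per mouse. Summed over 7 neutrophil markers, the level was 3.23 to 7.91 CPM in sham mice, 12.6 to 76.6 CPM with vehicle and 21.2 to 44.3 CPM with lactate. Of 8 astrocyte markers, Gfap, the filament gene of reactive astrocytes, rose in both ischemic groups, by 1.64 and 2.47 on the log2 scale, and Sox9 fell with lactate (-0.73). The astrocyte sum was 6053 to 9994 CPM in sham, 9562 to 11407 CPM with vehicle and 9585 to 11361 CPM with lactate. Of 8 microglia markers, the complement gene C1qb rose with vehicle and lactate (0.72 and 1.25) and C1qa with lactate (1.40). P2ry12, a receptor of resting microglia, fell in both groups (-1.01 and -1.10), and Cx3cr1 fell with vehicle (-1.21). The microglia sum was 285 to 327 CPM in sham, 235 to 314 CPM with vehicle and 378 to 417 CPM with lactate. Of 7 endothelial markers, Ly6c1 rose with lactate (0.86) and the transporter gene Slco1a4 fell (-1.70). Of 6 choroid plexus markers only Ttr was tested for lactate against sham, and it rose (3.25). The sum of 5 erythrocyte markers was lower in both ischemic groups. It was 560 to 633 CPM in sham, 333 to 500 CPM with vehicle and 375 to 499 CPM with lactate. The part of any of these cells in the Snhg1 level was not tested. Without vehicle mouse 2, the mouse with the high choroid plexus markers, Snhg1 remained called.

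Gas5, the growth arrest-specific host gene, was the lncRNA with the most counts and varied little. Its level was 1712, 1709, 1277 and 1677 CPM in sham mice 1 to 4. In vehicle-treated mice it was 1778, 1586, 1871 and 2106 CPM. In lactate-treated mice it was 1753, 2091, 1860 and 1797 CPM. Sham mouse 3 was the lowest of all 12, the vehicle group overlapped with sham, and the lactate group lay above every sham mouse. The log2 fold change was 0.24 (SE 0.13, edgeR adjusted P = 0.445) for vehicle and 0.26 (SE 0.11, edgeR adjusted P = 0.123) for lactate against sham, and neither passed the test. Lactate and vehicle differed by 0.01 on the log2 scale, with an interval of -0.21 to 0.23. Within each mouse, sham brain had 2.76 to 3.69 Snhg1 counts per 100 Gas5 counts, vehicle-treated brain 3.95 to 6.36 and lactate-treated brain 3.79 to 5.85. The ratio in each ischemic mouse thus lay above that of every sham mouse.

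Snhg11, a host gene that is mainly known from neurons, was lower in the lactate group than in sham. Its level was 925, 460, 490 and 410 CPM in sham mice 1 to 4. With vehicle it was 630, 391, 343 and 353 CPM, and with lactate 359, 286, 273 and 410 CPM. Mouse 1 stood high in the sham and in the vehicle group. The lactate group did not overlap with sham, but the gap was narrow, since lactate mouse 4 and sham mouse 4 were both at 410 CPM. The level fell 1.67-fold with lactate, from 571 ± 238 to 332 ± 64.0 CPM (SD, n = 4), a log2 fold change of -0.74 (SE 0.21, edgeR adjusted P = 0.0365). Without sham mouse 1 the log2 fold change was -0.43 and the adjusted P value 0.0698. The call was also lost, with the change still at -0.81, without sham mouse 3 (adjusted P = 0.0533 by edgeR). Without lactate mouse 1, 2 or 3 the change was -0.78, -0.67 and -0.65, at edgeR adjusted P values of 0.0656, 0.0975 and 0.103. One fit of all 12 mice gave -0.74 at 0.0651, and only genes that have an Ensembl identifier gave -0.68 at 0.0622. For vehicle against sham, the log2 fold change was -0.37 (SE 0.25, edgeR adjusted P = 0.562), and it was -0.055 without sham mouse 1 and -0.61 without vehicle mouse 1. Lactate against vehicle gave -0.40, with an interval of -0.85 to 0.06 (edgeR adjusted P = 0.605), and -0.14 without vehicle mouse 1.

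**Figure D4:**
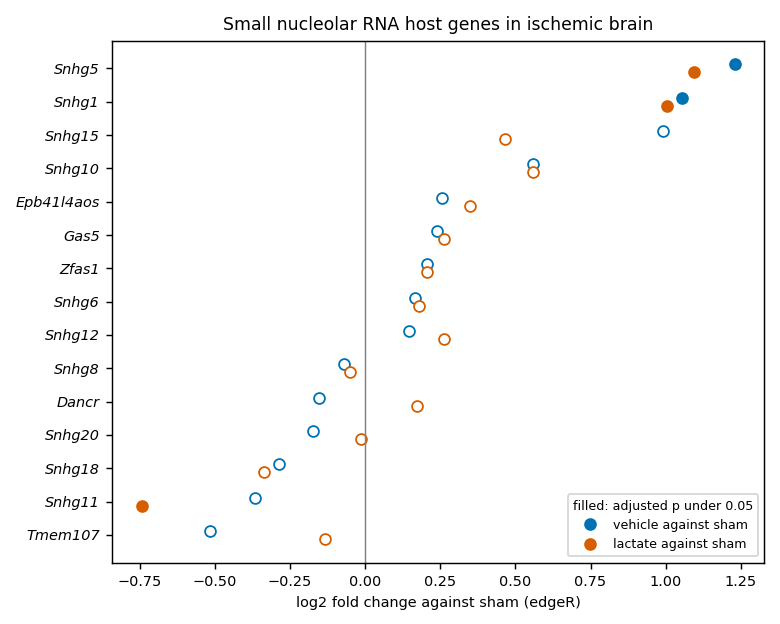
Log2 fold change against sham (edgeR) of Snhg1, Gas5, Snhg11 and 12 other snoRNA host genes, in vehicle-treated and lactate-treated ischemic brain, with filled dots for an adjusted P value under 0.05. Snhg5 and Snhg1 stand at the top with values of at least 1.00, most hosts lie near 0, and Snhg11 is the one filled dot below 0.

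Of a list of 19 other snoRNA host genes, 12 had a row and were tested. Snhg5 was the one called in either comparison with sham, and it rose in both. It went from a mean of 7.21 CPM in sham mice to 16.6 CPM with vehicle, a log2 fold change of 1.23 (SE 0.22, edgeR adjusted P = 0.0133). With lactate its mean was 15.1 CPM, a log2 fold change of 1.09 (SE 0.22, edgeR adjusted P = 0.00756). No host of the list was called lower, and the calls stand beside 1.29% of all genes called higher with vehicle and 8.76% with lactate. At an unadjusted P value under 0.05, 3 of the 12 were higher and 1 lower with vehicle, beside 8.58% and 5.21% of all genes, and 4 were higher and 0 lower with lactate, beside 15.6% and 11.4%. The list's median log2 fold change was 0.16 for vehicle and 0.19 for lactate against sham, beside 0.00 and -0.03 over all genes, and 0.00 for lactate against vehicle. In that comparison 0 of the 12 were called by edgeR, and 0 had an unadjusted P value under 0.05. Snhg15, another host, had 3.59 CPM in sham and 7.07 CPM in vehicle-treated mice but did not pass the test, with a log2 fold change of 0.99 (edgeR adjusted P = 0.164), and it was picked out after its values had been seen.

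Meg3, the first transcript of the imprinted region and known for its link to the p53 pathway, was lower in the lactate group. Its level was 1537, 757, 1074 and 719 CPM in sham mice 1 to 4. In vehicle-treated mice it was 874, 684, 634 and 651 CPM. In lactate-treated mice it was 486, 586, 505 and 745 CPM. The sham mice spread over more than a 2-fold range. Sham mouse 4 lay within the range of both ischemic groups, and sham mouse 2 within that of the vehicle group. Against sham, Meg3 fell 1.71-fold with lactate, from 1022 ± 379 to 581 ± 118 CPM (SD, n = 4), a log2 fold change of -0.78 (SE 0.20, edgeR adjusted P = 0.0234). Without sham mouse 1 the log2 fold change was -0.53 and the adjusted P value 0.0599. The call was also lost without sham mouse 3, with -0.75 at an edgeR adjusted P value of 0.0617. Without lactate mouse 1, 2 or 3 the change was -0.70, -0.77 and -0.71, at 0.0729, 0.0509 and 0.0700. With vehicle the mean was 711 ± 111 CPM and the log2 fold change -0.48 (SE 0.21, edgeR adjusted P = 0.324), and -0.23 without sham mouse 1. Lactate against vehicle gave -0.32, with an interval of -0.65 to 0.02 (edgeR adjusted P = 0.584), and -0.19 without vehicle mouse 1, so that a difference between the ischemic groups was not shown.

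Neuron markers gave no call beside Meg3 and Snhg11. Their summed level was at most 5578 CPM with lactate and at least 5584 CPM in sham mice, with medians of 5493 and 5715 CPM. The sum weighs most the abundant Syt1, at 1757 CPM in sham and 1528 CPM with lactate. Among the 10 markers, 0 were called by edgeR in any of the 3 comparisons, and 0 had an unadjusted P value under 0.05, and with lactate their median stood 0.07 above sham on the log2 scale. In vehicle mouse 1, in which Meg3 and Snhg11 were the highest of their group, the sum of the neuron markers was also highest, at 6855 CPM. Of the 10 markers, Syt1, Rbfox3, Slc17a7, Snap25 and Eno2 were highest of the group in that mouse, while Tubb3, Map2, Nefl and Gad1 were lowest. Other cell-type markers were called in both directions with lactate against sham. Beside P2ry12 and Sox9, those that fell were the myelin genes Mog (-0.60 on the log2 scale) and Cnp (-0.53), 2 of 8 oligodendrocyte markers, the endothelial gene Slco1a4 and the erythrocyte genes given next. Gfap, C1qa, C1qb, Ly6c1, Ttr and the neutrophil genes S100a8, S100a9 and Retnlg rose. Of 5 erythrocyte markers 4 fell, with Hbb-bt at -0.61, Hbb-bs at -0.42 and Hba-a2 at -0.45, although these hemoglobin genes have near-identical copies whose reads may be divided among them. Oligodendrocyte sums overlapped, at 7075 to 11314 CPM in sham and 8873 to 9916 CPM with lactate, while erythrocyte sums did not, at 560 to 633 CPM and 375 to 499 CPM. With vehicle the erythrocyte sum was also below sham, at 333 to 500 CPM. There 0 of the 5 markers were called, and 4 were lower at an unadjusted edgeR P value under 0.05, beside 5.21% of all genes. Between lactate and vehicle 0 of the 5 had such a P value. The endothelial sum was 154 to 161 CPM in sham and 174 to 222 CPM with lactate. The part of any cell type in the levels of Meg3 and Snhg11 was not tested. Genes with long transcripts also moved apart from genes with short ones in this mouse. Genes in the top quartile of transcript length deviated from their group mean by 0.23 more, on the log2 scale, than those in the bottom quartile in vehicle mouse 1. The same difference was 0.07 in sham mouse 1 and -0.08 to 0.06 in the other 10 mice. The part of RNA length in the results was not tested.

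Rian, the host of the snoRNA cluster, passed the test in no comparison. Its level was 950, 914, 1181 and 1087 CPM in sham mice 1 to 4. In vehicle-treated mice it was 1209, 1134, 1122 and 1379 CPM, and in lactate-treated mice 696, 1042, 973 and 938 CPM. Each lactate-treated mouse lay below every vehicle-treated mouse, while sham mice overlapped with both. The difference of lactate from vehicle was -0.43 on the log2 scale (SE 0.13, 95% interval -0.71 to -0.15), with an unadjusted edgeR P value of 0.00576 and an adjusted one of 0.481, so it did not pass the test. Against sham, the log2 fold change was 0.27 with vehicle (SE 0.12, edgeR adjusted P = 0.340) and -0.15 with lactate (SE 0.12, edgeR adjusted P = 0.471).

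Mirg, the microRNA host, had few counts. It was at 16.7, 7.36, 7.74 and 6.54 CPM in sham mice 1 to 4, between 7.34 and 11.2 CPM with vehicle and between 6.76 and 11.98 CPM with lactate. Sham mouse 1 was the highest of all, and the groups overlapped in each comparison. The log2 fold change was -0.02 for vehicle and -0.04 for lactate against sham, with intervals of -0.65 to 0.62 and -0.65 to 0.57 (edgeR adjusted P = 0.987 and 0.952). Lactate against vehicle gave -0.04, with an interval of -0.54 to 0.46. These intervals include a change of 1.38-fold or more in either direction.

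Ratios within a mouse compare members of the region without the total count. Sham mice 1 to 4 had a mean of 1.11 Rian counts per Meg3 count (0.618 to 1.51), vehicle-treated mice 1.73 (1.38 to 2.12) and lactate-treated mice 1.60 (1.26 to 1.93), and the ranges overlapped with sham. Per 100 Meg3 counts there were 0.721 to 1.09 Mirg counts in sham mice, 1.13 to 1.55 with vehicle and 1.18 to 2.04 with lactate. Every ischemic mouse had a higher ratio of Mirg to Meg3 than every sham mouse. The ratio of Mirg to Rian did not separate the groups. Per 100 Rian counts there were 0.601 to 1.76 Mirg counts in sham mice, 0.532 to 0.930 with vehicle and 0.895 to 1.15 with lactate. Snhg11 and Meg3 are unlinked genes, and this ratio was added after their levels had been seen. It averaged 0.559, 0.594 and 0.580 in sham, vehicle-treated and lactate-treated mice, with overlapping ranges. These ratios are descriptions, and no test was made. Of the protein genes of the region, Rtl1, a retrotransposon-derived gene on the paternal chromosome, was at a mean of 5.19 CPM in sham, 2.73 CPM with vehicle and 2.54 CPM with lactate. It did not pass the test (edgeR adjusted P = 0.309 and 0.113), and Dlk1 and Dio3 were below the filter for a test against sham. Dlk1, which encodes a Notch-family ligand, had means of 0.0887, 2.72 and 2.02 CPM in sham, vehicle-treated and lactate-treated mice, with 0 to 41 counts per mouse. Dio3, a deiodinase gene, had means of 0.304, 0.702 and 0.614 CPM.

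**Figure D5:**
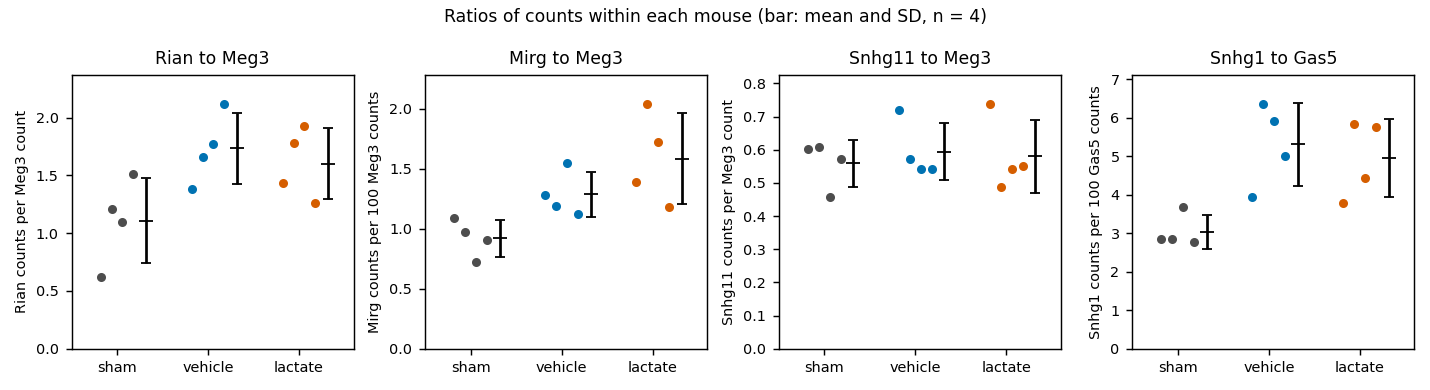
Ratios of counts within each mouse (dots, with mean and SD of 4 mice) for Rian to Meg3, Mirg to Meg3, Snhg11 to Meg3 and Snhg1 to Gas5, by group. For Mirg to Meg3 and Snhg1 to Gas5 each ischemic mouse lies above all sham mice, at no less than 1.13 and 3.79 per 100, while Snhg11 to Meg3 stays between 0.456 and 0.738.

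Miat was detected near the lower limit of the test. It had 27, 18, 22 and 26 counts in sham mice 1 to 4, 23, 24, 19 and 14 with vehicle and 28, 23, 16 and 24 with lactate. In CPM this was 2.01 to 3.79 over all mice, above the floor in each, and the groups overlapped. The log2 fold change was -0.24 (interval -0.86 to 0.39) for vehicle against sham. It was 0.00 (interval -0.60 to 0.60) for lactate against sham, and 0.22 (interval -0.42 to 0.86) for lactate against vehicle. The last interval reaches up to 1.81-fold, so it includes a difference of that size. Among the 20 genes of nuclear speckles and splicing, the processes that Miat and Malat1 are known for, 3 were called lower with lactate against sham and 0 higher, beside 3.55% and 8.76% of all genes. They were Rsrp1 (-2.37 on the log2 scale), the kinase gene Clk1 (-0.84) and the splicing factor gene Srsf1 (-0.62). Rsrp1 was also the gene called lower between lactate and vehicle, with a log2 fold change of -1.84 (edgeR adjusted P = 0.0328). Of 17 genes for paraspeckle proteins, which assemble on Neat1, 0 were called by edgeR in any comparison. At an unadjusted P value under 0.05, 1 was higher with vehicle and 3 were lower with lactate against sham, beside 8.58% and 11.4% of all genes, and 1 was lower with lactate against vehicle, beside 3.93%.

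Other lncRNAs gave a setting for these values. Of the rows filed as known lncRNA genes, 6 of 276 tested were called higher and 1 lower with vehicle, beside 1.29% and 0.182% of all genes. With lactate against sham, 11 of 278 were called higher and 17 lower, beside 8.76% and 3.55% of all genes. At an unadjusted P value under 0.05, 21 of 276 were higher and 25 lower with vehicle, beside 8.58% and 5.21% of all genes. With lactate against sham 24 of 278 were higher and 43 lower, beside 15.6% and 11.4%. These rows include 6 of the lncRNAs described here. Between lactate and vehicle, 0 of 265 were called by edgeR, and 5 were higher and 21 lower at an unadjusted P value under 0.05, beside 4.91% and 3.93% of all genes. Their median log2 fold change was -0.04, -0.19 and -0.12, against 0.00, -0.03 and -0.03 over all genes. From a list of 46 other lncRNAs of brain and of imprinted or microRNA loci, 7 were tested. With lactate against sham, C130071C03Rik fell by 1.07 on the log2 scale (edgeR adjusted P = 0.00182), and Mir9-3hg, which hosts a copy of the neural microRNA miR-9, rose by 0.44 (edgeR adjusted P = 0.0362). With vehicle against sham, the log2 fold changes of C130071C03Rik and Mir9-3hg were -0.64 and 0.76. Neither passed the test there (edgeR adjusted P = 0.215 and 0.151).

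The genes whose pattern over the 12 mice was most like that of each lncRNA were sought among 7409 genes, by the Pearson correlation of log2(CPM + 1). Mice share their group, so these values also carry the difference between groups, and they are given as descriptions. Snhg1 was followed most closely by Akap12, a scaffold protein gene (r = 0.96), and Cd14, a receptor gene of myeloid cells (r = 0.94). Akap12 had a mean of 12.1 CPM in sham, 60.7 CPM with vehicle and 55.7 CPM with lactate. Snhg11 was followed by Ppm1k (r = 0.97), and Meg3 by Dgkq (r = 0.94) and Phldb1 (r = 0.92). For Rian these were Ddx5, an RNA helicase gene (r = 0.88), and Acbd4 (r = 0.87), for Gas5 the splicing factor gene Sf1 (r = 0.89) and Vps37a (r = 0.85). Mirg was followed by Scd2 (r = 0.90) and Macf1 (r = 0.85), and Miat, with its few counts, by Sec24c (r = 0.90) and Mtfr1l (r = 0.86). Phldb1 went the way of Meg3, with means of 69.0, 46.0 and 35.9 CPM in sham, vehicle-treated and lactate-treated mice.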

How the data were processed

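Brain RNA of 12 mice was sequenced by the authors as full-length cDNA on nanopore flow cells. Short, low-quality and ribosomal reads were discarded, the remainder was mapped with minimap2, and isoforms were built with pinfish. The shortest annotated transcripts of Snhg1 and Gas5 have 312 and 346 bases, with medians of 602.5 and 629. Their short forms may therefore have been lost with the short reads. The submitters' processing notes name GRCm38 and DESeq 1.10.1, and the way of counting per gene is not given in the sources used here. The deposited count values are whole reads per gene without normalization, and the CPM values deposited by the authors equal count over total of each mouse. The table also holds edgeR P values, log2 fold changes and calls of the authors' own comparisons, which were not used. In all, 4 lines without a gene were dropped, and 27 symbols stored as dates were restored.

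Pairs of groups, taken from the labels, were tested with edgeR 4.0.16 in R 4.3.3 (quasi-likelihood test with TMM factors). Each fit held the 8 mice of its 2 groups and the genes that reached 1 CPM in 4 or more of them. P values were adjusted by Benjamini-Hochberg across these genes, and intervals are the model's 95% intervals. Floors cover counting error only. Mice of different groups are different animals, so their number served as a block in an alternative only. Other alternatives used DESeq2 1.42.0, other size factors and filters, all 12 mice in one fit, and fits without single mice. In simulated data for vehicle against sham (16669 genes), 61 of 100 genes changed 2-fold and 96 of 100 changed 4-fold were recovered, with 4 false calls. Figures were drawn with matplotlib 3.10.9.

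Named are the lncRNAs of the list, up to 3 called genes of each other list per comparison (smallest P value), and the 2 genes most like each lncRNA among those with a mean of at least 10 CPM. Apart from 1 gene that met this rule and is not reported here, all are given for the latter. Rtl1, Dlk1, Dio3, Snhg15, Syt1, Ly6g, Csf3r and Cxcr2 were added after their values had been seen. So were the neuron markers Rbfox3, Slc17a7, Snap25, Eno2, Tubb3, Map2, Nefl and Gad1. The members and lists were chosen with earlier results of these data known.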

Additional observations from a re-analysis of the deposited data

Results flagged for a closer look

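In 36 sets of 4 values (each lncRNA or ratio in each group), a single mouse stood far from the other 3 in 5 sets by Dixon's test at the 95% level, where chance gives about 1 in 20. In the sham group, mouse 1 was high in Mirg at 16.7 CPM and in Snhg11 at 925 CPM. In the vehicle group, mouse 1 was high in Snhg11 at 630 CPM. Sham mouse 3 was low in Gas5 at 1277 CPM, and its ratio of Snhg1 to Gas5 counts was high at 0.0369.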

How the results depend on the processing

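The 420 values recomputed under alternatives were log2 fold changes of single lncRNAs and numbers of lncRNAs called. Of these, 373 stayed the same. For a fold change this means the same direction and side of the threshold, and for a number called an equal number. The number of lncRNAs called lower with lactate against sham was 2, and became 1 with one fit of all 12 mice and 1 with only genes that have an Ensembl identifier. It ranged from 0 to 2 with a mouse left out. The fits with fewer genes or mice also have another set of tests. Snhg11 was the one lost in both of the former, at adjusted P values of 0.0651 and 0.0622, and the cause was not tested. With the mouse number as a replicate block the calls stayed at 1 higher and 0 lower, 1 and 2, and 0 and 0 in the 3 comparisons. Same-numbered mice deviated together with r over 0.1 in 2, 2 and 0 of 4 pairs, and the largest r was 0.176, for vehicle against sham. In 2, 3 and 0 of 4 pairs a mouse correlated best with its own number. With so few pairs, these values do not settle whether same-numbered mice are linked.

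Log2 fold changes near 0 that passed no test changed sign under some alternatives. For Mirg against sham with vehicle, the value was 0.040 with the block, 0.016 with only Ensembl genes and 0.25 with sham and vehicle mouse 1 both left out, which was chosen after seeing the data, and -0.15 to 0.37 with a mouse left out. For Mirg against sham with lactate it was 0.031 with the block, 0.025 with only Ensembl genes and -0.19 to 0.35 with a mouse left out. For Mirg between lactate and vehicle it was 0.0036 with only Ensembl genes and -0.20 to 0.090 with a mouse left out. For Miat against sham with lactate it was 0.0025 with other size factors and with DESeq2, 0.0019 with all 12 mice, 0.057 with only Ensembl genes and -0.16 to 0.12 with a mouse left out. Between lactate and vehicle, leaving a mouse out gave -0.21 to 0.066 for Snhg1 and -0.053 to 0.085 for Gas5, which was -0.014 without a filter on low counts.

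With 14 to 28 counts of Miat and 50 to 127 of Mirg per mouse, depth limits what can be said of both.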
